A study of Caenorhabditis elegans with 2 samples.

Results

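Molecular chaperones are the proteins that help other proteins fold and stay soluble. The genes described here are the 66 chaperone and heat shock protein genes among the 19973 nuclear protein-coding genes of Caenorhabditis elegans. They were taken by gene symbol on the WBcel235 annotation: every gene whose symbol starts with dnj-, hsp-, cct- or pfd-, plus daf-21, the Hsp90 gene that the annotation calls hsp-90, and hsf-1, the heat shock transcription factor. By class they comprised 29 J-domain genes, 13 small heat shock protein genes, 8 CCT chaperonin genes, 6 Hsp70 and Hsp110 genes, 6 prefoldin genes, 2 Hsp90 genes, the mitochondrial chaperonin gene hsp-60 and hsf-1. The measurement was chromatin immunoprecipitation with sequencing (ChIP-seq) of FKH-8, a forkhead protein that takes part in switching on the cilium genes of sensory neurons. The single group was whole starved L1 larvae of strain OP652, genotype unc-119(tm4063) III; wgIs652, mixed in sex and taken 6 hours after synchronization by bleaching, with 2 biological replicates. The wgIs652 transgene supplies C-terminally GFP-FLAG-tagged FKH-8, and every worm in the study carried it. There was no other condition, so no difference between conditions was tested, and whole larvae do not show which cells gave a peak. The deposited data were lists of peaks with no read counts, so the depth of both replicates is unknown.

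Chaperones work as a network. Hsp70 proteins bind exposed stretches of unfolded clients in a cycle driven by ATP, J-domain proteins (the dnj genes) bring clients to Hsp70 and start that cycle, and Hsp110 proteins release the nucleotide. Hsp90 matures signalling proteins, the barrel-shaped CCT chaperonin folds actin and tubulin, prefoldin hands newly made actin and tubulin to CCT, and small heat shock proteins hold damaged proteins until Hsp70 can refold them. Some of these genes are active in every growing cell, whereas others, such as the hsp-16 genes, are nearly silent until heat or another stress activates HSF-1, which binds repeated GAA and TTC units called heat shock elements. A gene counts as bound here if a reproducible peak has its summit between 1000 bp upstream and 200 bp downstream of the annotated 5′ end of that gene. A reproducible peak is one that passed the authors' threshold on how well peak ranks repeat between replicates.

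The sequences around the summits that the results turn on are shown first, from the RefSeq genome on WBcel235 (ce11), each 5′ to 3′ along the strand of the named gene. They cover the summit of the strongest peak at a bound gene of the 66 (hsp-1), 2 summits next to a 3-unit heat shock element (hsp-60 and hsp-110), an endoplasmic reticulum Hsp70 (hsp-3), a chaperonin subunit (cct-8), a J-domain gene (dnj-13), the heat-inducible hsp-16.2 and hsp-16.41 pair, and hsp-90, whose summit lay outside the window. Capitals mark matches, on either strand, to GAANNTTC or TTCNNGAA (paired heat shock units), to the 3-unit element, to GTAAACA (forkhead core), to GACGC (alternative forkhead core) or to GAGAGA. The peaks at hsp-3 and cct-8 have a GACGC match among the letters shown, the peak at hsp-1 has a run of the GAGAGA repeat, and the hsp-16 pair has a 3-unit element on each side of a GACGC match.
hsp-1 (chrIV:17278509-17278609, plus strand): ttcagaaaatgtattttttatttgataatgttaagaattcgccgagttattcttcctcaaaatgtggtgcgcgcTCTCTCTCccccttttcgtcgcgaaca
hsp-60 (chrIII:1619041-1619221, plus strand): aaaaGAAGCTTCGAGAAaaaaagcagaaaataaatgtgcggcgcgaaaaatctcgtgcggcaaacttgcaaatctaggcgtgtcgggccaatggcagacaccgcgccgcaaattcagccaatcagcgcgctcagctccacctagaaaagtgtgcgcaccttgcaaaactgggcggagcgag
hsp-110 (chrIII:8447104-8447204, minus strand): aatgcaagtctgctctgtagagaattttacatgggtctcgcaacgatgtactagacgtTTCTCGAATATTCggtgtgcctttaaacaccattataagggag
hsp-3 (chrX:6092147-6092247, minus strand): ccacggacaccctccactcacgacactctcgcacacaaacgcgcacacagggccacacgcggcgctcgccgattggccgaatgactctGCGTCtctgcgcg
cct-8 (chrIV:1094307-1094407, minus strand): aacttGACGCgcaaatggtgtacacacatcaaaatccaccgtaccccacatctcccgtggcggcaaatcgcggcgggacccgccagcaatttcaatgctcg
dnj-13 (chrII:11545441-11545541, plus strand): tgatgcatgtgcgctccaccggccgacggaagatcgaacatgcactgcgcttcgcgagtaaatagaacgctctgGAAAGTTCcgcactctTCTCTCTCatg
hsp-16.41 and hsp-16.2 (chrV:1805010-1805185, plus strand): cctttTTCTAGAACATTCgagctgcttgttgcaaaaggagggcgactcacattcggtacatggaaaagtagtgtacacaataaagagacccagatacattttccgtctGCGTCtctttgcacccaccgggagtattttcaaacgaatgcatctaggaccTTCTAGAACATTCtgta
hsp-90 (chrV:14685717-14685817, plus strand): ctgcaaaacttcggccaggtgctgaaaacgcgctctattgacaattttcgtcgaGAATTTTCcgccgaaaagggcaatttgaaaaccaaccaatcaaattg

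Of the 66 chaperone genes, 30 had the summit of a reproducible peak in the promoter window (45.5%, exact 95% interval 33.1% to 58.2%, which covers counting error only), against 2752 of all 19973 coding genes (13.8%). The 30 genes were reached by 29 separate peaks, and 36 genes had none. Taking the 4963 highest peaks of each replicate's own list in place of the reproducible list called 28 chaperone genes in replicate 1, against 13.5% of all coding genes, and 30 in replicate 2, against 13.8%. That is 43.9% ± 2.14 of the chaperone genes and 13.6% ± 0.202 of all coding genes (SD, n = 2 replicates). Coding genes with a gene-class symbol of any kind, 10896 in all, were bound at 17.1%. The bound chaperone genes lay on every chromosome, from 5 of 12 on chromosome I to 3 of 5 on X. The share depends on how a peak between 2 genes is assigned: giving each summit only to the nearest 5′ end within the window left 14 chaperone genes (21.2%), against 2108 of all coding genes (10.6%). By the nearest 5′ end at any distance it was 17 chaperone genes (25.8%), against 3608 of all coding genes (18.1%).

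**Figure D1:**
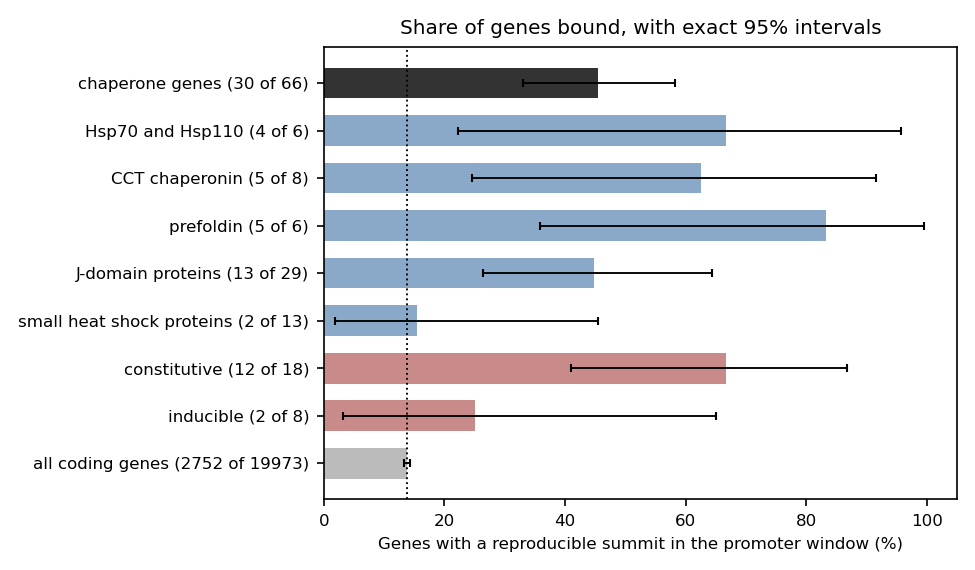
Share of genes bound in the promoter window (horizontal axis, percent) for all 66 chaperone genes, 5 of their classes, the constitutive and inducible lists and, at the bottom, all coding genes. Whiskers are exact 95% intervals for counting error, and the dotted line is the 13.8% of all coding genes; prefoldin has the highest bar at 83.3% and small heat shock proteins the lowest of the 5 classes drawn at 15.4%.

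The peaks at the bound chaperone genes were spread over the whole range of signal but lay mostly in its upper part. The signal is the authors' value for a peak, its scaling is not stated, and it describes peaks within a list only. The bound chaperone genes had a median signal of 396.6 (range 95.62 to 1495) and a median rank of 570.5 among the 4963 reproducible peaks, against a median signal of 189.3 and a median rank of 2018 for all bound coding genes. Among the 992 highest peaks stood those of 18 of the 30 bound chaperone genes, and of 772 of the 2752 bound coding genes. A rank within the highest 100 was held by 7 chaperone genes and by 94 of all bound coding genes.

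**Figure D2:**
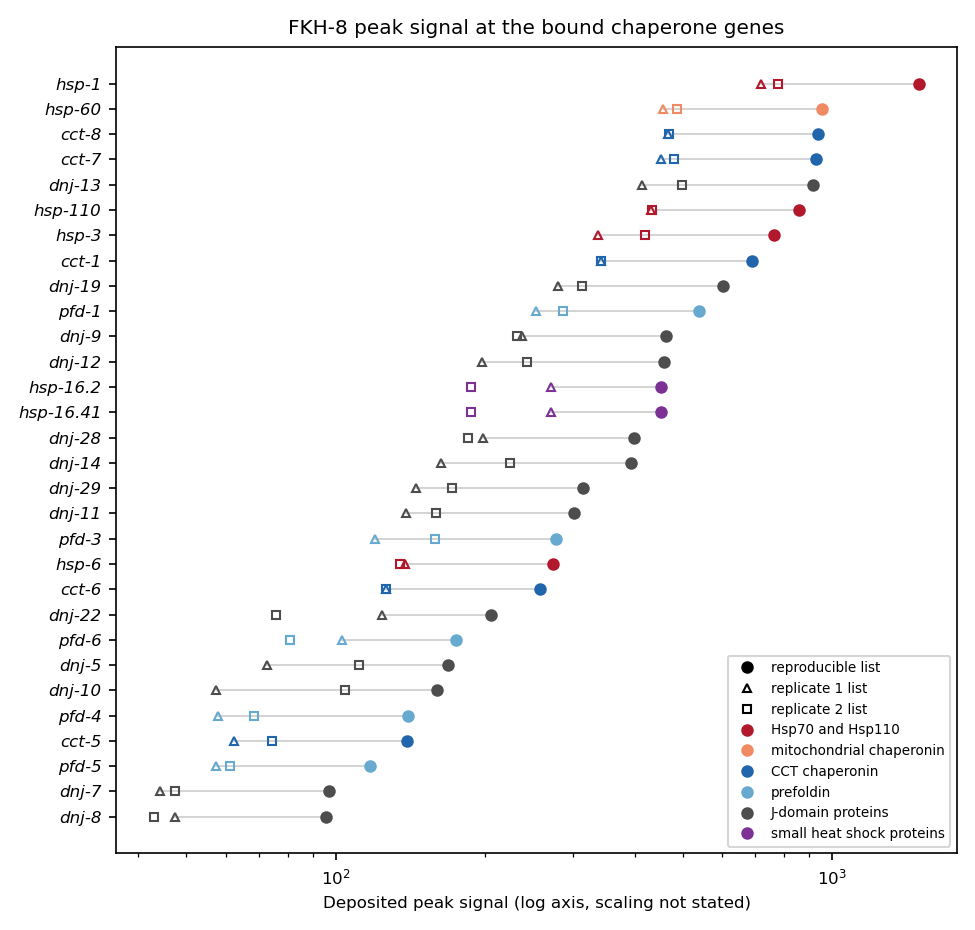
Deposited peak signal (horizontal log axis, scaling not stated) at the 30 bound chaperone genes, ordered by signal, with filled circles for the reproducible list and open triangles and squares for replicates 1 and 2. The values run from 1495 at hsp-1 to 95.62 at dnj-8, and colours give the classes.

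The Hsp70 and Hsp110 class had 4 of its 6 genes bound (66.7%, interval 22.3% to 95.7%), against 13.8% of all coding genes. The median signal of the bound ones was 811.9, and the same 4 genes were called in each replicate. The strongest peak at any of the 66 genes stood 400 bp upstream of hsp-1, the constitutive cytosolic Hsp70 (chrIV:17278959-17281330, plus strand). Its signal was 1495, rank 7 of 4963, with 720.3 in replicate 1 and 776.9 in replicate 2. No other coding gene shared that summit, and the next gene upstream, on the same strand, lies 1210 bp away. At hsp-110, which encodes the nucleotide exchange factor of the cytosolic Hsp70, the signal was 858.4 (rank 64), with 432.6 in replicate 1 and 433.5 in replicate 2. That summit lies 245 bp upstream of hsp-110 and nearer to rpn-3, a divergent gene for a proteasome subunit. The endoplasmic reticulum Hsp70 hsp-3 had its summit 73 bp upstream with a signal of 765.4 (rank 88), from 336.9 in replicate 1 and 419.6 in replicate 2, and shared it with no other gene. The mitochondrial Hsp70 hsp-6 was lower, at 273.5 (rank 1149), 432 bp upstream and nearer to the divergent gene C37H5.5.

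Both unbound genes of that class are stress-inducible ones. Neither hsp-70, a cytosolic Hsp70 strongly induced by heat, nor hsp-4, the second endoplasmic reticulum Hsp70 and a standard reporter of endoplasmic reticulum stress, had even a pooled peak in its window. The nearest reproducible summit lay 14794 bp from the 5′ end of hsp-70 and 6383 bp from that of hsp-4. Thus the hsp-3 promoter, with rank 88, and the hsp-4 promoter, with no peak, stand apart although both genes encode the same kind of chaperone in the same compartment. This is a comparison of 2 genes and was not tested.

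The Hsp90 gene hsp-90 (daf-21) was not bound by the promoter rule, yet one of the strongest peaks in the genome lay inside it. The peak, chrV:14685612-14685907, had a signal of 1069, rank 22 of 4963, with 477.7 in replicate 1 (rank 34 of that list) and 592.0 in replicate 2 (rank 17). Its summit lies 849 bp downstream of the annotated gene start, in the first intron of the longer of 2 annotated transcripts. The other transcript starts at 14686160, which is also the RefSeq gene start, and from there the summit is 393 bp upstream. With that start in place of the annotated gene start, hsp-90 would count as bound. The same summit lies in the promoter window of C47E8.4, a gene on the opposite strand. The 5′ end of C47E8.4 is 567 bp downstream of the annotated hsp-90 start. The summit is nearer to C47E8.4 than to either hsp-90 start, and hsp-90 was not called by the nearest 5′ end. The mitochondrial Hsp90 gene hsp-75 had no pooled peak in its window.

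**Figure D3:**
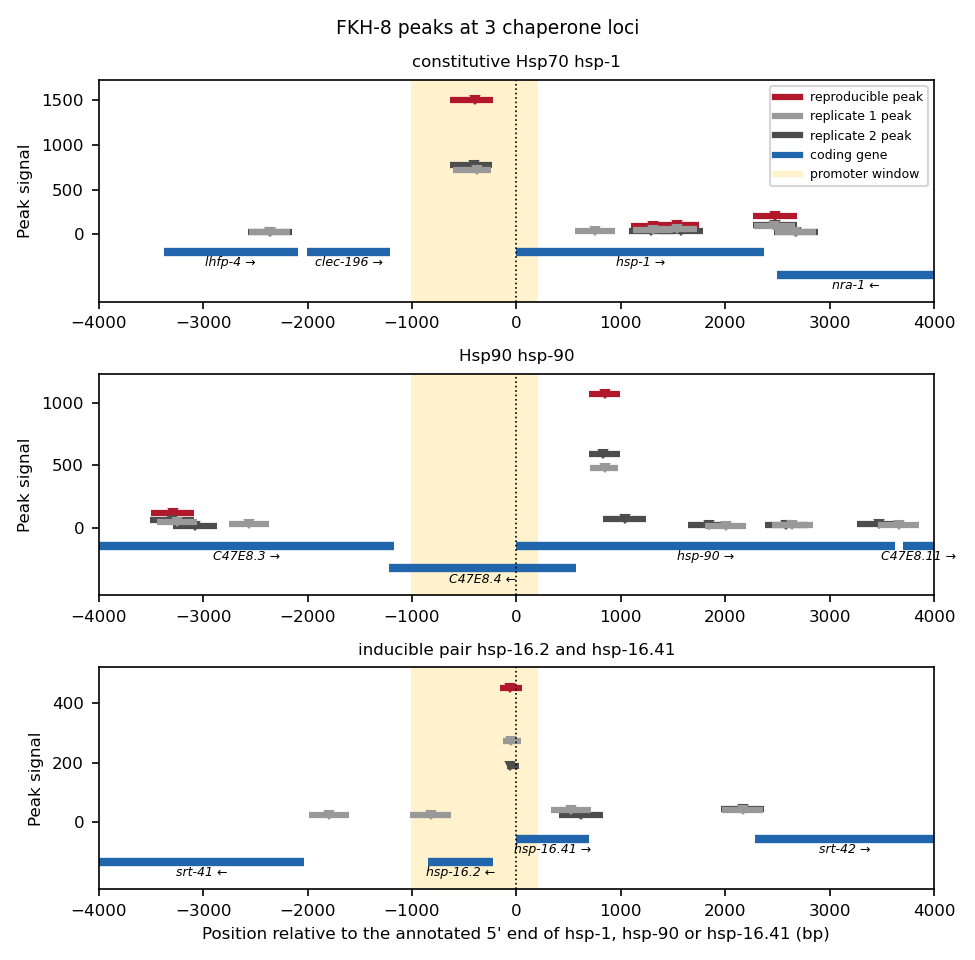
Peaks (horizontal bars at the height of their signal, with a marker at the summit) around hsp-1, hsp-90 and hsp-16.41, plotted by distance in bp from the annotated 5′ end, with coding genes below and the promoter window shaded. The reproducible peak of signal 1495 lies inside the hsp-1 window, the one of 1069 lies 849 bp inside hsp-90, and the one of 452.3 lies between hsp-16.2 and hsp-16.41.

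Genes of the mitochondrial and endoplasmic reticulum folding systems were bound at 3 of 6 each (50%, interval 11.8% to 88.2%), against 13.8% of all coding genes. For the mitochondrion these were hsp-60, hsp-6 and dnj-10, a mitochondrial J-domain gene, while hsp-75, dnj-15 and dnj-21, whose product RefSeq names as a subunit of the inner membrane translocase, were not bound. The hsp-60 gene encodes the chaperonin of the mitochondrial matrix, and its peak had a signal of 954.9 (rank 34), with 456.0 in replicate 1 and 486.4 in replicate 2. The summit lies 611 bp upstream of hsp-60 and nearer to the divergent gene Y22D7AL.10, whose product RefSeq calls the mitochondrial 10 kDa heat shock protein, the partner of the chaperonin. One summit thus lay in the windows of both genes of the mitochondrial chaperonin system. For the endoplasmic reticulum the bound genes were hsp-3, dnj-29 and dnj-7, while hsp-4, dnj-20 and dnj-27 were not bound.

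The CCT chaperonin is built of 8 different subunits, and 5 of the 8 genes were bound (62.5%, interval 24.5% to 91.5%), against 13.8% of all coding genes. Replicate 1 called 5 and replicate 2 called 6. The strong peaks were those of 3 subunit genes. The peak at cct-8 had a signal of 936.0 (rank 39), with 467.6 in replicate 1 and 468.3 in replicate 2. At cct-7 it was 928.3 (rank 43), with 451.4 in replicate 1 and 480.5 in replicate 2, and at cct-1 it was 689.6 (rank 118), with 341.9 in replicate 1 and 342.5 in replicate 2. The other 2 were weaker. At cct-6 the signal was 257.4 (rank 1281), with 126.5 in replicate 1 and 126.4 in replicate 2, and at cct-5 it was 139.0 (rank 3084), with 62.39 in replicate 1 and 74.45 in replicate 2.

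The subunit genes of this one complex therefore differed widely, and the 3 unbound ones each had a pooled peak below the reproducible threshold. The closest was cct-2, with a pooled signal of 92.16 (rank 5136), just under the list minimum of 94.94. Its replicates differed, with 30.74 in replicate 1 (rank 9027) and 65.76 in replicate 2 (rank 3464), so that it counted as bound in replicate 2 alone. The pooled peak at cct-3 had a signal of 39.79 and that at cct-4 36.64, both near the pooled list minimum of 35.95. The cct-4 window held no summit in either replicate's list, and the cct-3 window held none in replicate 1. By all pooled peaks, 29.8% of all coding genes had a summit in the window. All 5 bound CCT genes have a divergent coding neighbour whose window holds the same summit: Y55F3AR.2 for cct-8, T10B5.4 for cct-7, mig-5 for cct-1, alh-9 for cct-6 and F25F2.1 for cct-5. In each case the summit is nearer to the neighbour, so that none of the 5 would be called by the nearest 5′ end in the window.

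Prefoldin has 6 subunits, and 5 of its 6 genes were bound (83.3%, interval 35.9% to 99.6%), against 13.8% of all coding genes. The same 5 genes were called in each replicate. Their signals were lower than those of most Hsp70 and CCT genes, with a median of 175.0 for prefoldin against 689.6 for the bound CCT genes. The highest was pfd-1, at 539.3 (rank 265), with 253.1 in replicate 1 and 287.7 in replicate 2. Its summit lay nearer to the divergent gene F01G4.6. The next was pfd-3, at 278.2, with 120.0 in replicate 1 and 158.8 in replicate 2 and a summit 12 bp from the gene start, the closest of all. At pfd-6 the signal was 175.0, with 103.0 in replicate 1 and 81.07 in replicate 2.

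The last 2 sat in the lower part of the list. The signal was 139.7 at pfd-4 (58.02 in replicate 1 and 68.51 in replicate 2) and 117.4 at pfd-5 (57.30 in replicate 1 and 61.23 in replicate 2). The pfd-4 summit lay nearer to B0035.22, a gene on the same strand. Restricting the list to the peaks above its median signal of 164.0 removed pfd-4 and pfd-5 and left 3 prefoldin genes. The remaining subunit gene, pfd-2, had no pooled peak in its window. CCT and prefoldin genes together, the folding line for actin and tubulin, were bound at 10 of 14 (71.4%, interval 41.9% to 91.6%). That was from 10 separate peaks, against 13.8% of all coding genes bound.

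The J-domain genes are the largest class, and 13 of 29 were bound (44.8%, interval 26.4% to 64.3%), against 13.8% of all coding genes. Replicate 1 called 11 and replicate 2 called 12. The strongest was dnj-13, which encodes a class B J-domain protein of the cytosol. Its signal was 915.9 (rank 48), with 414.7 in replicate 1 and 498.8 in replicate 2. Its summit lies 210 bp upstream of dnj-13, inside an intron of dhgd-1, a gene on the opposite strand that spans dnj-13; it was the only one of the 29 summits in chaperone promoter windows that was not intergenic. The class A genes dnj-12 and dnj-19 were bound at lower signals. At dnj-12 the signal was 458.4, with 197.0 in replicate 1 and 243.2 in replicate 2. At dnj-19 it was 601.7, with 280.1 in replicate 1 and 313.1 in replicate 2. The dnj-19 summit lies 394 bp upstream of dnj-19 and nearer to the divergent gene nhr-47.

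Among the other J-domain genes dnj-9 had a signal of 463.1, with 237.8 in replicate 1 and 232.2 in replicate 2. Next came dnj-28 at 399.0 and dnj-14, the worm gene for the synaptic vesicle protein called cysteine string protein, at 394.3. The value was 314.7 at dnj-29, which encodes a J-domain protein of the endoplasmic reticulum membrane, and 302.0 at dnj-11. The summits at dnj-14, dnj-29 and dnj-11 lay nearer to the divergent genes glit-1, ndua-2 and F38A5.2, in that order.

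Lower values were found at dnj-22 (205.3), dnj-5 (168.5) and dnj-10 (159.8). The dnj-22 summit lay nearer to the divergent gene natc-1. The summit at dnj-5 was the farthest from any bound chaperone gene, at 770 bp upstream. At the bottom of the list stood dnj-7, which encodes a J-domain protein of the endoplasmic reticulum lumen, at 96.93 (rank 4846), and dnj-8 at 95.62 (rank 4914). These 2 genes lay just inside the threshold, and neither was among the 4963 highest peaks of either replicate. Of the 16 unbound J-domain genes, 3 had a pooled peak below the threshold, with signals of 80.81 at dnj-1, 68.13 at dnj-25 and 61.12 at dnj-23, and the other 13 had none.

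Of the 13 small heat shock protein genes 2 were bound (15.4%, interval 1.92% to 45.4%), a share near the 13.8% of all coding genes, and these 2 shared a single peak. The small heat shock gene sip-1, which the symbol rule does not take in, was also bound, at a signal of 253.6. The single peak shared by the 2 bound genes lies between hsp-16.2 (chrV:1804334-1804957, minus strand) and hsp-16.41 (chrV:1805178-1805875, plus strand). These genes are transcribed away from each other across a gap of 220 bp. The signal was 452.3 (rank 422), with 271.9 in replicate 1 (rank 236) and 186.9 in replicate 2 (rank 698), so that the peak was higher in replicate 1. The summit is 163 bp upstream of hsp-16.2 and 58 bp upstream of hsp-16.41. Both genes are standard markers of the heat shock response, and hsp-16.2 is widely used as a stress reporter. The larvae here were starved and not labelled as heated.

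The other hsp-16 genes could not be read in the same way. The pairs hsp-16.1 with hsp-16.48 and hsp-16.11 with hsp-16.49 had no pooled peak in their promoter windows, but they are copies of one another: hsp-16.48 and hsp-16.49 were identical over 487 bases, and hsp-16.1 and hsp-16.11 were 92.8% identical. Of the 31-base words in their promoter windows, 96.5% for hsp-16.1, 93.3% for hsp-16.11 and 100% for hsp-16.48 and hsp-16.49 occur more than once in the genome, against 2.56% for hsp-16.2 and 3.93% for hsp-16.41. How reads that match several places were handled is not given in the sources used here, so a lack of binding at these 4 genes cannot be told apart from reads that were not placed. Outside the windows, a pooled peak that was not in the reproducible list had its summit 873 bp downstream of the 5′ end of hsp-16.48, past the end of that gene. Its signal was 85.78, with 33.43 in replicate 1 and 56.73 in replicate 2. The remaining small heat shock genes, hsp-12.1, hsp-12.2, hsp-12.3, hsp-12.6, hsp-17, hsp-25 and hsp-43, also had no pooled peak in the window, and none of these has such repeated sequence. A reproducible peak of signal 509.8 (rank 314) lay 927 bp downstream of the 5′ end of hsp-12.3, past the end of that gene.

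Constitutive chaperone genes were bound more often than inducible ones by count, on lists taken from general knowledge of these genes. Of the 18 constitutive genes, 12 were bound (66.7%, interval 41% to 86.7%; 12 in replicate 1 and 13 in replicate 2), with a median signal of 408.8, against 13.8% of all coding genes. The 3 genes that are constitutive and raised further by organelle stress, hsp-3, hsp-6 and hsp-60, were all bound. Of the 8 inducible genes 2 were bound (25%, interval 3.19% to 65.1%), both from the hsp-16.2 and hsp-16.41 peak, in the reproducible list and in each replicate. The intervals overlap, 4 of the 6 unbound inducible genes are the hsp-16 copies in repeated sequence, and CCT and prefoldin genes make up 14 of the 18 constitutive ones; the other 4 had 2 bound (hsp-1 and hsp-110) and 2 unbound (hsp-90 and hsp-75). Assigning each summit to the nearest 5′ end in the window left 4 of 18 constitutive genes (22.2%) and 1 of 8 inducible genes (12.5%), against 10.6% of all coding genes. By the nearest 5′ end at any distance it was 5 of 18 constitutive genes (27.8%) and 2 of 8 inducible genes (25%), against 18.1% of all coding genes. Those 2 inducible genes were hsp-16.41 and hsp-4, while hsp-16.2 was lost. For hsp-4 the summit lay 6383 bp downstream of its 5′ end. The size of the contrast between constitutive and inducible genes thus rests on summits shared with a neighbour.

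The heat shock factor gene hsf-1 was not bound. A pooled peak 67 bp upstream of it had a signal of 44.71 (rank 12514), below the reproducible threshold, with 23.52 in replicate 1 and 26.50 in replicate 2. The nearest reproducible summit lay 1822 bp upstream, outside the window, with a signal of 138.8.

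**Figure D4:**
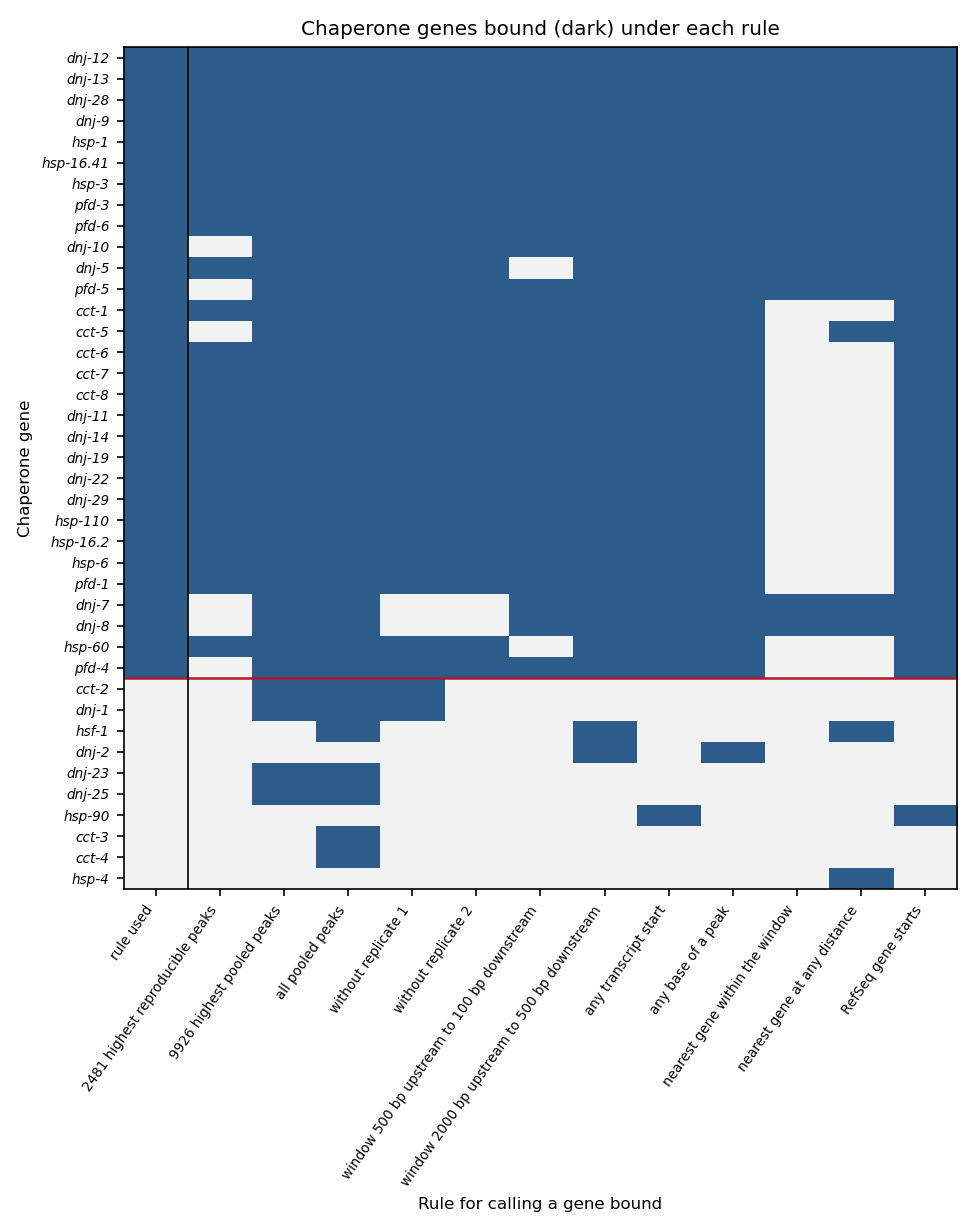
Chaperone genes (rows) called bound (dark) or not (light) under the rule used and 12 other rules (columns); genes not bound under any rule are left out, and the red line divides the 30 genes bound under the rule used from the others. The 9 genes at the top are dark in every column, and the columns for the nearest gene are light for all or all but 1 of the CCT genes.

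All 29 peaks at bound chaperone genes were present in both replicate lists, which the reproducible list selects for. The ratio of replicate 2 to replicate 1 had a median of 1.07, and 21 of 29 were higher in replicate 2. The ratio was lowest at dnj-22 (0.612) and at the hsp-16 pair (0.687), and highest at dnj-10 (1.82). Spearman's rho over the 29 peaks was 0.972, a description across peaks that share both libraries and were kept because their ranks repeat. Among the highest 4963 peaks of a replicate, those at dnj-7 and dnj-8 appeared in neither replicate, and those at cct-2 and dnj-1 in replicate 2 alone.

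The median position relative to the gene was much the same as at all bound coding genes, while the spread was narrower by count, which was not tested. The median distance was 242 bp upstream for chaperone genes (range 12 to 770), against 233 bp for all bound coding genes. Within 500 bp upstream lay 28 of the 30, against 2006 of 2752 bound coding genes. None was downstream of the 5′ end, against 138 of the 2752. Of the 29 peaks, 28 had an intergenic summit (96.6%), against 1859 of the 2119 peaks in windows of all coding genes (87.7%).

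**Figure D5:**
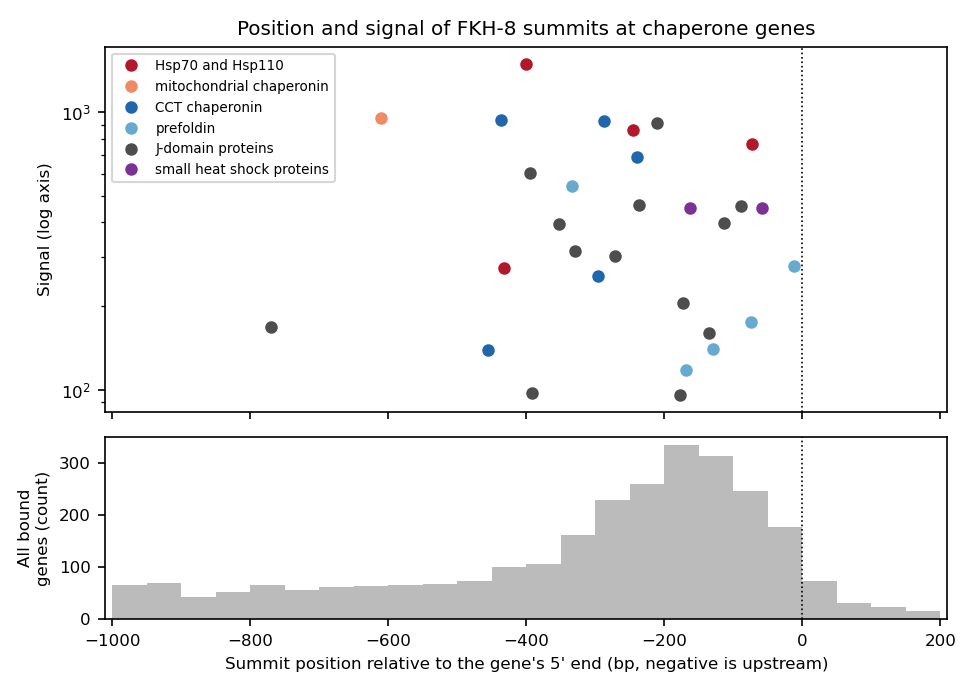
Upper panel, signal (log axis) against the position of the summit relative to the gene's 5′ end in bp (negative is upstream) for the 30 bound chaperone genes, coloured by class. Lower panel, the number of all bound coding genes in bins of position; most chaperone summits lie between 12 and 500 bp upstream, as do most of the others.

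Sharing of a promoter region was common. At 22 of the 30 bound chaperone genes the summit also lay in the window of another coding gene (73.3%), against 1230 of 2752 bound coding genes (44.7%), and the chaperone gene itself was the nearest gene at 14 of 30 (46.7%), against 2098 of 2752 (76.2%). Gene arrangement differed too: 29 of the 66 chaperone genes have a divergent upstream neighbour within 1000 bp, against 3502 of all coding genes. Within that arrangement 19 of 29 chaperone genes were bound (65.5%, interval 45.7% to 82.1%), against 1022 of 3502 coding genes (29.2%). With an upstream neighbour on the same strand within 500 bp, 5 of 13 chaperone genes were bound (38.5%, interval 13.9% to 68.4%), against 313 of 3612 (8.67%). In all other arrangements 6 of 24 were bound (25%, interval 9.77% to 46.7%), against 1417 of 12854 (11%). The chaperone share was thus the higher one in each of the 3 arrangements, by counts and with no test.

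Heat shock element sequence was, by count, more frequent near the summits of chaperone genes than near all reproducible summits, which was not tested. The motifs were searched on both strands within 100 bp of the summit, and a match is a description of the letters, not a bound site. GAANNTTC, a pair of facing heat shock units, was present at 12 of the 29 summits of chaperone genes (41.4%, interval 23.5% to 61.1%), against 9.25% of all 4963 reproducible summits and 10.2% of the 992 highest. TTCNNGAA, the pair in the other order, was present at 9 of 29 (31.0%, interval 15.3% to 50.8%), against 10.9% of all summits. Both motifs read the same on either strand. The 3-unit element, 3 alternating GAA and TTC units, contains one match to each of them and was present at 4 of 29 (13.8%, interval 3.89% to 31.7%), against 1.37% of all summits. Those 4 were the summits of hsp-60, hsp-110, dnj-12 and the hsp-16 pair. The element nearest to a summit was that of hsp-110, 14 bp away, visible in the sequence printed above as TTCTCGAATATTC. These shares depend on the distance searched: within 50 bp of the summit GAANNTTC was present at 4 of 29 (13.8%), against 4.41% of all summits, TTCNNGAA at 2 of 29 (6.9%), against 4.69%, and the 3-unit element at 1 of 29 (3.45%), against 0.564%. In the hsp-16 pair the 2 elements lay 99 bp and 55 bp from the summit, one on each side.

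Heat shock elements were also present at unbound chaperone genes. Over whole promoter windows a 3-unit element was present at 16 of 66 chaperone genes (24.2%), at 9 of the 30 bound ones (30.0%), at 7 of the 8 inducible ones (87.5%) and at 4 of the 18 constitutive ones (22.2%), against 1534 of all coding genes (7.68%). Both genes of each divergent hsp-16 pair share the same elements, so the inducible count covers fewer separate regions than genes. A 3-unit element stood 67 bp upstream of the 5′ end at the unbound gene hsp-70. At hsp-90, not bound by the promoter rule, such elements stood 9 bp and 79 bp upstream. The paired units were common in windows of any kind. GAANNTTC was present at 69.7% of the chaperone genes and 76.7% of the bound ones, against 57.2% of all coding genes. For TTCNNGAA the bound share was the lower one, at 70% against 75.8% of the chaperone genes, with 57.9% of all coding genes.

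Forkhead sequence at the summits was less distinct. GTAAACA was present at 2 of 29 summits (6.9%), those of dnj-22 and dnj-7, against 4.05% of all reproducible summits. The wider forkhead consensus, which reads A or G, C or T, AAA, C or T, then A and includes GTAAACA, was present at 12 of 29 (41.4%), against 31.3%. GACGC, an alternative core reported for some forkhead proteins, was also present at 12 of 29 (41.4%), against 30.7% of all summits and 43.6% of the 992 highest. GAGAGA was found at 7 of 29 (24.1%), against 34.6% of all and 46.6% of the highest. No match to the X-box, the element of the ciliary regulator DAF-19, was found at these 29 summits, which allows a share of up to 11.9% by the exact interval, against 3.49% of all summits. The median GC content of the searched sequence was 40.8% for chaperone summits and for all summits alike.

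Genes that work with the chaperones were described in the same way. Of 34 genes listed from general knowledge, with earlier results of these data known, 24 were bound (70.6%, interval 52.5% to 84.9%), against 13.8% of all coding genes. Co-chaperones of Hsp70 and Hsp90 were bound at 9 of 12. The highest was bag-1, a nucleotide exchange factor of Hsp70, at a signal of 907.8. It was followed by ahsa-1, the activator of the Hsp90 ATPase, at 450.2, by fkb-6 at 355.0, by sti-1, which links Hsp70 to Hsp90, at 319.2, and by daf-41, the p23 protein, at 303.4. Lower values were found at pph-5 (207.5), sgt-1 (206.0), hip-1 (133.6) and unc-45 (123.2), the myosin chaperone, while cdc-37, unc-23 and chn-1 were not bound.

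Folding genes of the endoplasmic reticulum were bound at 6 of 8, against 13.8% of all coding genes. The signal was 566.1 at calreticulin crt-1, 398.6 at the endoplasmic reticulum Hsp90 enpl-1 and 134.7 at calnexin cnx-1. At the protein disulfide isomerases it was 372.3 for pdi-3, 275.4 for pdi-6 and 240.1 for pdi-2. Regulators of stress responses were bound at 6 of 11, against the same 13.8%. These were xbp-1 (674.6), atf-6 (273.0) and ire-1 (157.4) of the unfolded protein response, daf-16 (222.4), the forkhead factor of insulin signalling, and ubl-5 (138.4) and atfs-1 (104.2) of the mitochondrial stress response. The regulators hsb-1, skn-1, pqm-1, dve-1 and pek-1 were not bound. All 3 of the further chaperones listed were bound. The peak at cdc-48.1, the ATPase that unfolds ubiquitin-tagged proteins, had a signal of 1681, rank 4 of all 4963 peaks. The signal was 253.6 at the small heat shock gene sip-1 and 175.9 at cdc-48.2. Summits shared with the window of another coding gene were those at ahsa-1, daf-41, sgt-1, hip-1, fkb-6, pph-5, enpl-1, pdi-3, sip-1 and cdc-48.2. The related genes were not counted by the nearest 5′ end.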

How the data were processed

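ChIP-seq of GFP-tagged FKH-8 was measured in 1 group of starved L1 larvae with 2 biological replicates, per the labels. For the antibody the description gives anti-GFP, which was followed, whereas the antibody field gives fkh-8. The authors deposited 8 peak lists in narrowPeak format, 4 on ce11, used here, and 4 on ce10, not used. The ce11 lists hold 4963 reproducible peaks that passed an irreproducible discovery rate (IDR) threshold, 17956 pooled peaks, 19354 peaks of replicate 1 and 21452 of replicate 2; the last 3 lists include background regions, per the labels. The signal of each peak was deposited by the authors with no stated scaling, and it served only to describe and rank peaks within a list. The −log10 q-value of each peak, also deposited by the authors, had reached its upper limit of 3.91 at 28 of the 30 bound genes and was not used for ranking. The aligner, the peak caller, the IDR cutoff and the treatment of reads with several matches are not given in the sources used here. A control sample named in the labels was not analysed here. No counts are in the files, so depth is unknown and intervals cover counting error only; genes and peaks are not independent replicates.

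Summits were placed in windows around the 5′ ends of Ensembl release 115 genes on WBcel235, and coordinates are 1-based. The placement was tested on simulated data. The annotation names daf-21 as hsp-90 and gives 2 genes each the symbols hsp-16.1 and hsp-16.48; the second of each is called hsp-16.11 and hsp-16.49 here, as in RefSeq. The RefSeq symbols hsp-16.20 and hsp-16.21, which the Ensembl annotation does not carry, were not members, and both genes were unbound. The 31-base words were counted in the RefSeq genome on both strands. Shares carry exact Clopper-Pearson 95% intervals. Values per replicate use the 4963 highest peaks of its list. No test was run between sets of genes. The rule for naming was: every bound member with its signal; replicate values for the 12 highest and for bound genes of the constitutive and inducible lists; unbound members with a sub-threshold pooled peak or in the Hsp70, Hsp90, small heat shock, CCT or prefoldin classes; hsf-1; and bound related genes. The unbound related genes and those of the mitochondrial and endoplasmic reticulum lists were named after their values were seen. So were hsp-90's peak and the peaks near hsp-12.3 and hsp-16.48. The members and lists were chosen with earlier results of these data known. Alternatives changed the list, the window, the gene starts, the assignment of summits and the motif flank, and left out each replicate. Python 3.11.15, numpy 2.4.6, pandas 2.3.3, scipy 1.17.1, biopython 1.88 and matplotlib 3.10.9 were used.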

Additional observations from a re-analysis of the deposited data

How the results depend on the processing

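Of 96 counts recomputed under 12 alternatives, 78 stayed within 1.5 times the count reported; 9 of the 30 bound genes were bound and 26 of the 36 unbound genes unbound under every one. Assigning each summit to the nearest gene within the window gave 14 chaperone, 8 J-domain, 3 hsp, 0 CCT, 3 prefoldin, 4 constitutive and 1 inducible genes bound; at any distance it gave 17 chaperone, 8 J-domain, 4 hsp, 1 CCT, 3 prefoldin, 5 constitutive and 2 inducible genes, among 3608 coding genes. The reproducible peaks above the median signal of their list left 24 chaperone genes, 3 of them prefoldin, among 1613 coding genes, and a median signal of 455.4. The highest pooled peaks, 2 for each reproducible one, gave 4251 coding genes and a median of 308.3; all pooled peaks gave 5950, with all 8 CCT genes and a median of 278.2. The wider window gave a median of 354.5, the nearest gene within the window 338.6 and at any distance 278.2. Leaving out one replicate, the counts ranged from 28 to 30 chaperone genes, with 11 or 12 J-domain, 7 hsp, 5 or 6 CCT, 5 prefoldin, 12 or 13 constitutive and 2 inducible, and from 2691 to 2748 coding genes; the median signal ran from 185.9 to 197.4, on the scale of a single replicate's list. Within 50 bp of the summit GAANNTTC was present at 13.8% of chaperone summits, against 4.41% of all, TTCNNGAA at 6.9%, against 4.69%, the 3-unit element at 3.45%, against 0.564%, and the wider forkhead consensus at 20.7%. Within 200 bp TTCNNGAA was at 51.7%, against 22.4%, and the wider forkhead consensus at 75.9%, against 55.1%. RefSeq gene starts, an alternative chosen after seeing the data, added hsp-90. No paired analysis was possible because there is 1 group. Unknown depth limits how weak peaks such as those at dnj-7, dnj-8 and cct-2 can be read.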
